A study of Mus musculus with 19 samples.

Results

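The aryl hydrocarbon receptor gene Ahr, its partner genes Arnt and Arnt2, its repressor genes Ahrr and Tiparp, and Nfe2l2, which encodes the transcription factor NRF2, were examined in the lungs of mice exposed to polycyclic aromatic hydrocarbons. Members were taken as all array probes whose RefSeq identifier mapped to 1 of these 6 symbols. These are 6 of the 20660 gene symbols matched on the array. They had 10 of its 55681 probes, of which 8 were among the 31005 probes bright enough to be tested. Ahr, Arnt, Ahrr and Tiparp each had a pair of probes, while Arnt2 and Nfe2l2 had 1 each. For Ahrr only 1 of its probes was tested, and Arnt2 was not tested.

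All mice were male Muta™Mouse animals aged about 12 weeks, a transgenic strain used for mutation assays, on a BALB/C and DBA/2 background. The control group, D0, was gavaged with olive oil alone (5 mice). The exposed groups received the 8PAH mixture, 8 polycyclic aromatic hydrocarbons dissolved in olive oil, at 15 (D1, 4 mice), 30 (D2, 5 mice) or 60 (D3, 4 mice) mg benzo[a]pyrene (BaP) equivalents/kg-bw/day. Gavage was daily for 28 days, and lung was collected 72 h later, with RNA from randomly taken sections, so the values describe mixed lung cells 3 days after exposure ended. Lung RNA of each mouse, labelled red (Cy5), was hybridized against a commercial pool of RNA from 11 mouse cell lines that served as reference (Cy3, green), and each level below is a log2 ratio of lung over that reference. The array labelled as mouse 23 of D2 carries a number that falls among the D1 mice, and the group sizes of the study's methods differ from those of the labels by 1 mouse in D1 and D2. It was kept as labelled.

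AHR is a ligand-activated transcription factor that waits in the cytoplasm in a complex of chaperones. Once such a hydrocarbon is bound it enters the nucleus, pairs with ARNT and binds xenobiotic response elements near genes of foreign compound metabolism, such as Cyp1a1 and Cyp1b1. AHRR and TIPARP (a mono-ADP-ribosyltransferase) are themselves products of genes that AHR switches on, and both restrain AHR in negative feedback. NRF2 drives a separate antioxidant response, and its gene is a described AHR target. In the lung this system is best known for the metabolic activation of hydrocarbons from smoke.

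The stretch upstream of a gene's start is where such elements can lie, so it is shown for the 3 described AHR target genes among the members. Letters are from RefSeq (build GRCm38.p6), which held promoters for 5 of the 6 genes and none for Ahr. Each is the 250 bases before the start, 5′ to 3′ on the gene's strand. Capitals mark GCGTG on either strand (CACGC when read on the other), the core of the xenobiotic response element, and TGACNNNGC on either strand, the core of the antioxidant response element that NRF2 binds. The regions are chr13:74292332-74292581 (minus strand) for Ahrr, chr3:65528197-65528446 (plus strand) for Tiparp and chr2:75704664-75704913 (minus strand) for Nfe2l2.
Ahrr: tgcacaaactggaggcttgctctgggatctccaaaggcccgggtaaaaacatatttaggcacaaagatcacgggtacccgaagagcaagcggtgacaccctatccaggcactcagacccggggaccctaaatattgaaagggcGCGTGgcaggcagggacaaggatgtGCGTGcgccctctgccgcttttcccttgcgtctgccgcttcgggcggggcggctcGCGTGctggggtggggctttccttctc
Tiparp: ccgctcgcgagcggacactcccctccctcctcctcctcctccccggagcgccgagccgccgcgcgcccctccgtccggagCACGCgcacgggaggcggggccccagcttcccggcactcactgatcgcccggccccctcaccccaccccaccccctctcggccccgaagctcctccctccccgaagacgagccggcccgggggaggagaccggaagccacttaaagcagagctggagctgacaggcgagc
Nfe2l2: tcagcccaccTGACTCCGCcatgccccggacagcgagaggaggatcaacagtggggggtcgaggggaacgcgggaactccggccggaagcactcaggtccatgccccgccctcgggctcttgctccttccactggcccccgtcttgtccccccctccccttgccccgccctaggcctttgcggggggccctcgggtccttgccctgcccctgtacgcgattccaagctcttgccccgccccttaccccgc
Ahrr held 3 copies of GCGTG, Tiparp 1 and Nfe2l2 0. Of 32851 RefSeq promoters of this length, 28.2% held at least 1. The longer form TNGCGTG, which overlaps GCGTG, was present once in Ahrr, ending in the copy nearest the gene start, and in 4.1% of all promoters. TGACNNNGC was present once in Nfe2l2, 2 times in Arnt (which also held 1 GCGTG) and in 10.2% of all promoters, and Arnt2 held none of the 3 forms. These are matches of letters only, and whether a factor bound them was not measured.

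Ahrr was the member that responded. Its transcript was higher in the lungs of exposed mice at every dose, close to 3-fold at D1 and about 3.5-fold at D2 and D3 on signals that include background, with most of the increase already present at the lowest dose. Of the 8 tested member probes, 1 was called in each comparison with D0, and each time it was this probe. The probe passed the filter on dim probes through the exposed groups, being well above background in 1 of 5 control mice, so this count is a description. With no filter it was called at each dose with the same fold changes. Over all tested probes the share called either way was 1.06% for D1, 0.629% for D2 and 2.43% for D3. A probe is called here at a limma adjusted p of at most 0.05 with a change of at least 1.5-fold. The 3 comparisons share the 5 control mice.

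The log2 ratio of the tested Ahrr probe (A_51_P254425) was -0.51, -0.55, -0.77, -0.58 and -0.66 in the D0 mice. It was 0.90, 0.61, 1.37 and 0.70 in D1, and 0.75, 1.43, 0.96, 1.41 and 1.35 in D2. In D3 it was 1.37, 1.04, 1.36 and 1.12. Every exposed mouse lay above every control mouse, and the exposed groups overlapped one another. The lowest D2 value was that of mouse 23. Among all tested probes, 8.91% (D1), 4.1% (D2) and 14.6% (D3) likewise had no overlap with D0.

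Control mice had a mean Ahrr log2 ratio of -0.61 ± 0.10 (SD, n = 5). The exposed groups had means of 0.89 ± 0.34 (D1, SD, n = 4), 1.18 ± 0.31 (D2, SD, n = 5) and 1.22 ± 0.17 (D3, SD, n = 4). The log2 fold change against D0 was 1.505 ± 0.15 (SE) at D1, with a limma adjusted p of 1.94e-05. It was 1.79 ± 0.14 (SE) at D2 (limma adjusted p = 7.27e-07) and 1.84 ± 0.15 (SE) at D3 (limma adjusted p = 2.81e-07). As fold changes these were 2.84 (95% confidence interval 2.28 to 3.53), 3.46 (2.82 to 4.26) and 3.57 (2.87 to 4.45). The order of the levels was D0, D1, D2, D3 with loess. The order of D2 and D3 depends on the scaling. With the processed signals described below the log2 fold change was 3.764 at D2 and 3.758 at D3. Where arrays were centred on their median it was 1.78 and 1.75. With loess, only the step from D0 to D1 was larger than the spread. The log2 difference was 0.29 for D2 against D1 (95% confidence interval -0.03 to 0.60, limma adjusted p = 0.555) and 0.05 for D3 against D2 (-0.27 to 0.36, limma adjusted p = 0.94). The fitted linear trend rose by 1.70 on the log2 scale from 0 to 60 mg/kg-bw/day (limma adjusted p = 0.00287). Where arrays were centred on their median in place of loess it was 1.60 (limma adjusted p = 0.0755) and was not called. The trend was called for 1 of the 8 member probes, again Ahrr (1.52% of all tested probes), and so was the mean of the 3 doses against D0, at a log2 fold change of 1.71 (1.07% of all tested probes). In D3 against D2, 0 member probes and 0.106% of all tested probes were called. Dose group held 92.8% of the variance of Ahrr between mice, and slide, taken first, held 2.57%.

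**Figure D1:**
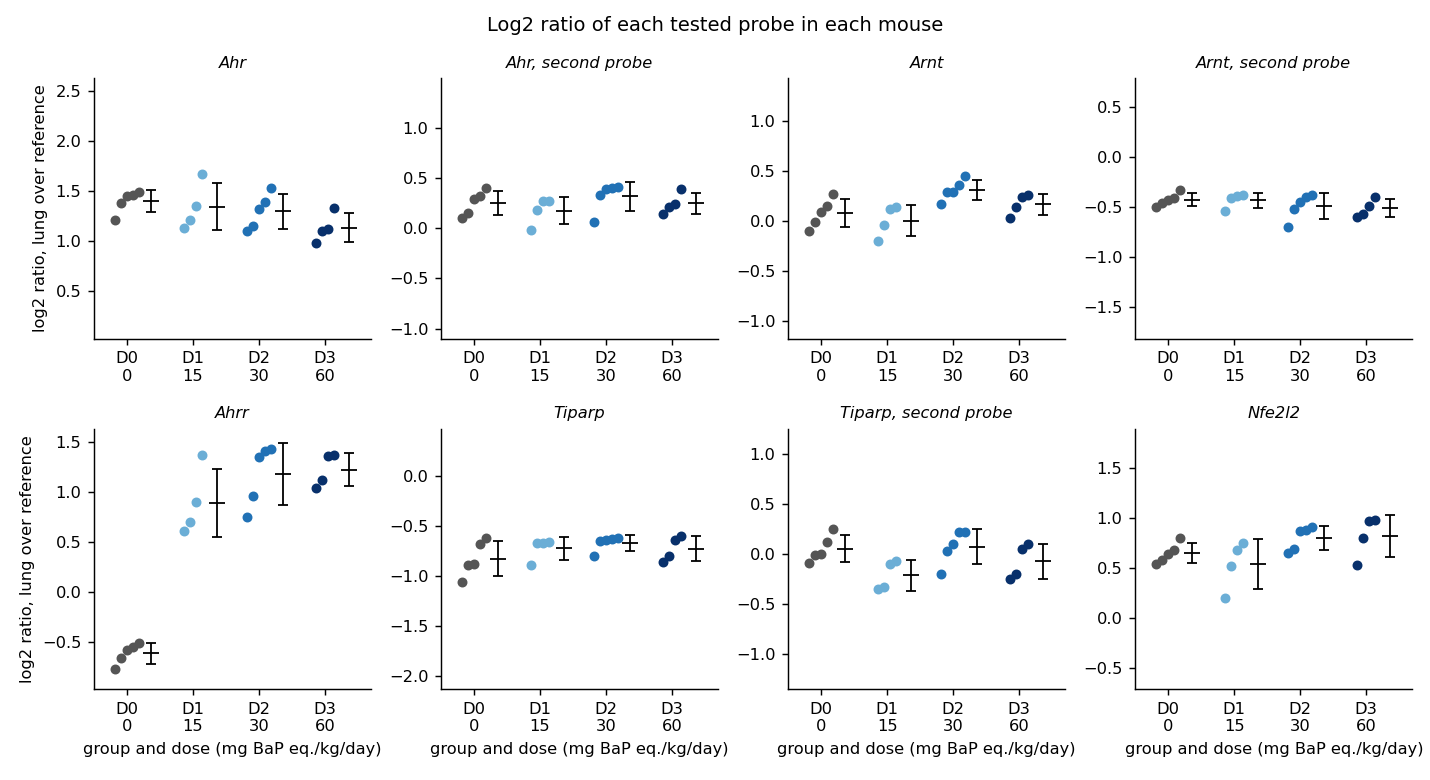
Log2 ratio of lung over reference RNA (vertical axes, each spanning the same range) for the 8 tested probes, by group with the dose in mg BaP equivalents/kg-bw/day. Each point is 1 mouse and the bars are mean ± SD; in the Ahrr panel the 13 exposed mice sit between 0.61 and 1.43, all above the control mice, and in the other panels the groups overlap.

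The size of the Ahrr increase depends on how the dim control signal is treated. In control lungs the red signal of the probe was 85.5 to 119 intensity units over a local background of 70.0 to 74.0, and it was well above background in 1 of 5 mice. In exposed lungs it was 211.5 to 528 and well above background in 13 of 13 mice, while the reference signal stayed between 85.0 and 119.5 in all mice. The fold changes above come from signals without background subtraction and include this background. When the processed signals of the scanner files were used instead, from which background has been removed, the fitted ratio to D0 was 10.3 (D1), 13.6 (D2) and 13.5 (D3). With 4 of 5 control mice not well above background the direction was measured in every mouse, but the size of the increase was not well determined.

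**Figure D2:**
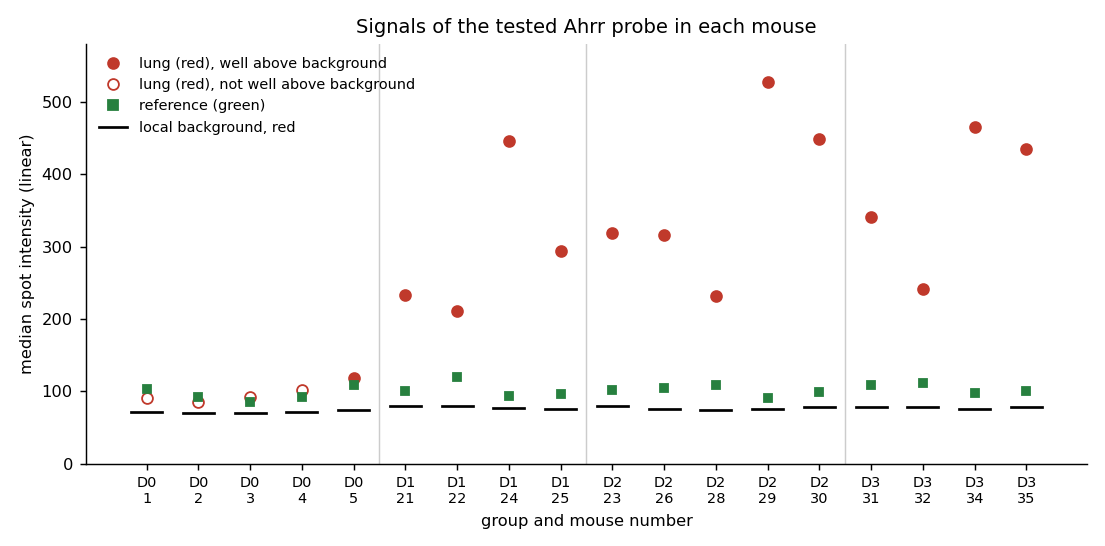
Median spot intensity (linear scale) of the tested Ahrr probe in each mouse, with mice ordered by group and number. Filled circles are lung signals well above background and open circles are those that were not, squares are the reference signal and short lines are the local red background; the control circles lie just above the background lines and the exposed ones at 211.5 to 528.

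On each of the 3 slides, which all held every group, Ahrr was higher at each dose. Slide 3 held 1 array per group, and its D3 array was the second one of mouse 35, whose first array was on slide 2, so slides 2 and 3 do not hold separate D3 animals. The difference of D3 from D0 was 1.74, 1.94 and 1.73 on slides 1, 2 and 3. That of D2 was 1.72, 2.05 and 1.41, and that of D1 was 1.28, 2.04 and 1.36. The second Ahrr probe (A_55_P2128388) was not well above background in any of the 18 mice. Its red signal was 74.5 to 80.0 in D0 and 85.0 to 111 in the exposed mice, over a background of 70.0 to 80.0, so no fold is given.

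The genes whose log2 ratio followed Ahrr most closely over the 18 mice were Ces2e (a carboxylesterase, Pearson r = 0.975), Cyp1b1 (0.956), Trp53inp1 (a p53-inducible gene, 0.954), Serp2 (0.953) and Nhlrc2 (0.929). All 5 were also higher at D3, with log2 fold changes of 2.88, 2.68, 1.42, 1.57 and 1.07. The 18 points include the gap between control and exposed mice, and the values of a mouse share its array.

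Among the 13 exposed mice alone, Ahrr varied with Cyp1a1, the hydrocarbon-metabolizing enzyme gene classically used to read AHR activity. Pearson's r was 0.872 (permutation p = 2e-05, adjusted over 6 relations 0.00012) and Spearman's rho was 0.912 (permutation p = 6e-05, adjusted 0.00036). Pearson's r was 0.793 without the 2 mice farthest from the median of Ahrr, 0.932 in the 6 exposed mice of slide 1 and 0.838 after removing each dose group's mean. The permutation p-values, here and for the relations below, belong to r and rho over the exposed mice of all doses together. They therefore include differences between dose groups, and relations within a dose group were not tested. With Cyp1b1, which metabolizes these hydrocarbons as well, r was 0.799 (permutation p = 0.00077, adjusted 0.00231) and rho 0.852 (permutation p = 0.00047, adjusted 0.00141). The mouse with the highest Cyp1a1 ratio, D3 mouse 31 at 6.18, had an Ahrr ratio of 1.37, and the exposed mouse with the lowest Cyp1a1, D1 mouse 25 at 0.43, had 0.70. These pairs were chosen after their values were seen.

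The receptor gene itself, Ahr, was not called at any dose. The brighter probe (A_55_P2109613), well above background in 18 of 18 mice, read 1.45, 1.38, 1.46, 1.21 and 1.49 in D0. It read 1.35, 1.13, 1.21 and 1.67 in D1 and 1.53, 1.32, 1.38, 1.1 and 1.15 in D2. In D3 it read 0.98, 1.33, 1.12 and 1.097. All 4 D3 mice lay below the D0 mean, although the groups overlapped through D0 mouse 4 and D3 mouse 32. The group means were 1.40 ± 0.11 (SD, n = 5), 1.34 ± 0.24 (SD, n = 4), 1.296 ± 0.17 (SD, n = 5) and 1.13 ± 0.15 (SD, n = 4), in the order of dose.

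The log2 fold change of Ahr was -0.06 at D1 and -0.10 at D2, or -0.16 at D2 without mouse 23. At D3 it was -0.27 (95% confidence interval -0.50 to -0.04, limma adjusted p = 0.126), which did not pass the threshold. The difference of D3 from D0 was -0.26, -0.28 and -0.29 on slides 1, 2 and 3 (the last again from the second array of mouse 35), and with slide as a block the limma adjusted p was 0.0552. Where arrays were centred on their median in place of loess, the changes of Ahr were 0.27 (D1), 0.13 (D2) and -0.04 (D3), so its direction at the lower doses depends on the scaling. The linear trend over dose fell by 0.26 (limma adjusted p = 0.128). No step between neighbouring doses was called. The second Ahr probe (A_65_P06603) read 96.0 to 128.5 intensity units over a background of 75.0 to 84.0. It was well above background in 12 of 18 mice in red and in 0 in green, and its log2 fold change at D3 was -0.01.

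In the exposed mice, Ahr and Cyp1a1 varied in opposite directions. Pearson's r was -0.683 (permutation p = 0.00975, adjusted 0.0195) and Spearman's rho -0.643 (permutation p = 0.02, adjusted 0.03). Without the 2 mice farthest from the median of Ahr, r was -0.470, and in the 6 exposed mice of slide 1 it was -0.463, so the relation was weaker in both subsets. Those 2 mice, 25 of D1 and 23 of D2, were the exposed mice measured on slide 3 alone. Slide, taken first, held 38.7% of the variance of Ahr between mice, and dose group, taken first, held 29.6%. The part of slide in this relation was not tested. After removing each dose group's mean r was -0.645. With Cyp1b1, r was -0.584 (permutation p = 0.0367, adjusted 0.0441) and rho was -0.621 (permutation p = 0.0276, adjusted 0.0325). Gbp9 (0.870), an interferon-inducible guanylate-binding protein gene, and Tbc1d22b (0.851) had the ratios most like Ahr over the 18 mice by Pearson's r, and neither was called at D3.

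**Figure D3:**
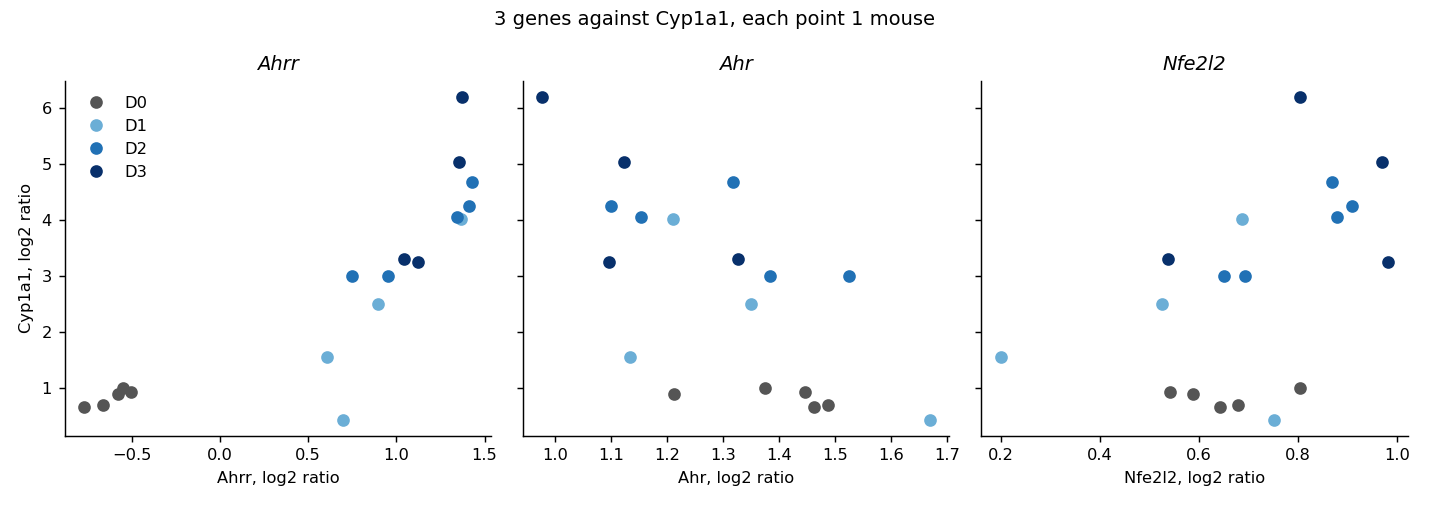
Log2 ratio of Cyp1a1 (vertical axis) against that of Ahrr, Ahr and Nfe2l2 (horizontal axes, log2 ratio), 1 point per mouse, coloured by group. The control mice lie at 0.66 to 0.99 on the Cyp1a1 axis with 1 D1 mouse, at 0.43, below them; among the 13 exposed mice Pearson's r was 0.872 for Ahrr, -0.683 for Ahr and 0.544 for Nfe2l2.

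Arnt, the obligate partner of AHR and also of the hypoxia factors, was not called at any dose. Its brighter probe (A_55_P2100895) read 0.15, -0.11, 0.09, 0.27 and -0.01 in D0. It read -0.20, 0.12, 0.14 and -0.04 in D1, 0.29, 0.36, 0.17, 0.29 and 0.44 in D2, and 0.24, 0.02, 0.26 and 0.14 in D3. All 5 D2 mice lay above the D0 mean, and the groups overlapped. The D2 log2 fold change was 0.23 (95% confidence interval 0.05 to 0.41, limma adjusted p = 0.183), beside -0.08 for D1 and 0.09 for D3. Where arrays were centred on their median, Arnt was 0.21 (D1), 0.43 (D2) and 0.26 (D3), not called. The largest step between neighbouring doses was 0.31 for D2 against D1 (limma adjusted p = 0.308). In that comparison 0% of all tested probes were called, and 3047 had an unadjusted limma p under 0.05. The second Arnt probe (A_55_P2100899), at -0.70 to -0.33 in all mice, differed from D0 by -0.06 at D2 and -0.09 at D3. The D2 difference of the brighter probe was therefore not seen by the second. Nr2f2 (0.830), a nuclear receptor gene, and Zfand5 (0.824) were most like Arnt by Pearson's r.

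Arnt2, the paralog of Arnt known chiefly from brain and kidney, was not well above background in the lung channel in any of 18 mice. Its red signal was 72.0 to 99.5 over a background of 70.0 to 80.0. In the reference RNA it was well above background on the arrays of 10 of 18 mice, at 58.0 to 86.0 in all mice. No fold is given.

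Tiparp, the other repressor, was well above background in every mouse by both probes and was not called at any dose by either. The probe taken first (A_51_P514961) read -0.88, -0.62, -0.88, -1.06 and -0.68 in D0. It read -0.89, -0.67, -0.67 and -0.66 in D1, -0.63, -0.64, -0.80, -0.62 and -0.64 in D2, and -0.80, -0.86, -0.60 and -0.64 in D3. The exposed values lay within the range of the controls but for D3 mouse 34, the highest of all. Its log2 fold change was largest for D2, at 0.16 (95% confidence interval -0.02 to 0.34). Both D1 and D3 gave 0.10 (-0.09 to 0.29), so the interval ended below 1.5-fold in each comparison. Centring arrays on their median gave 0.40 (D1), 0.36 (D2) and 0.29 (D3), not called, so the size and the order of the doses depend on the scaling. The D3 difference was -0.08, 0.36 and 0.02 on slides 1, 2 and 3.

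The second Tiparp probe (A_55_P1985890) disagreed with the first in sign for the lowest and the highest dose with loess, while with median centring it was 0.03 (D1) and 0.06 (D3), of the same sign. At D1 the log2 fold change was -0.27 (95% confidence interval -0.49 to -0.05, limma adjusted p = 0.152), below the D0 mean in 4 of 4 mice. It was 0.02 at D2 and -0.13 at D3. With slide as a block the D1 difference was -0.25 and its adjusted p was 0.0304, below 1.5-fold. Prcd (0.857) and Mrgpra2b (0.825) were most like the first Tiparp probe by Pearson's r.

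Nfe2l2 was well above background in every mouse and was not called. Its probe (A_51_P411271) read 0.54, 0.81, 0.64, 0.59 and 0.68 in D0. It read 0.53, 0.20, 0.69 and 0.75 in D1, 0.65, 0.87, 0.69, 0.91 and 0.88 in D2, and 0.80, 0.54, 0.97 and 0.98 in D3. The groups overlapped at every dose, and D1 mouse 22 was the lowest. For D3 the log2 fold change was 0.17 (95% confidence interval -0.06 to 0.40, limma adjusted p = 0.351). For D2 it was 0.15 and for D1 -0.11. Where arrays were centred on their median it was 0.23 (D1), 0.37 (D2) and 0.38 (D3), not called. The linear trend rose by 0.23 over the dose range, with a limma adjusted p of 0.245. The D3 difference was -0.00, 0.40 and 0.23 on slides 1, 2 and 3. In the exposed mice, r with Cyp1a1 was 0.544 (permutation p = 0.0565, adjusted 0.0565) and rho 0.604 (permutation p = 0.0325, adjusted 0.0325), r in the 6 exposed mice of slide 1 was 0.841, and after removing group means r was 0.268. With Cyp1b1, r was 0.650 (permutation p = 0.0163, adjusted 0.0245), rho 0.736 (permutation p = 0.00528, adjusted 0.0106), r on slide 1 was 0.763 and r after removing group means 0.402. Zfp266 (0.906) and Kif1c (0.835) had ratios most like Nfe2l2.

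**Figure D4:**
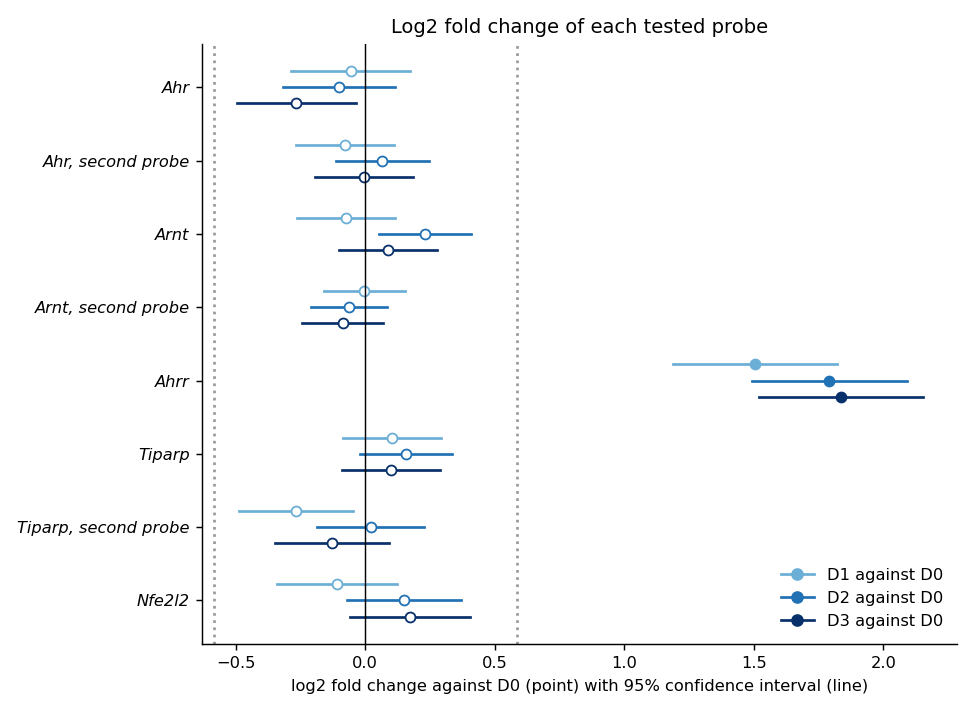
Log2 fold change against D0 (horizontal axis) of the 8 tested probes at D1, D2 and D3, with 95% confidence intervals as lines; filled points were called, open points were not, and dotted lines mark 1.5-fold. Ahrr is the single probe past 1.5-fold, at 1.505, 1.79 and 1.84, and the interval of Ahr at D3 runs from -0.50 to -0.04.

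The surroundings of these genes were read from 8 hand-written gene lists, chosen with earlier results of these data known. The median log2 fold change over all 31005 tested probes was 0.0064 (D1), -0.0037 (D2) and -0.0025 (D3). A share of 4.78% (D1), 2.07% (D2) or 12.4% (D3) of all probes met the adjusted p alone, whatever the fold. Among 17 tested probes of 14 described AHR target genes, of which Ahrr, Nfe2l2 and Tiparp are members, 3 (D1), 3 (D2) and 4 (D3) were called, all higher. Among all probes 0.593%, 0.435% and 1.2% were called higher. The median of the list was 0.10, 0.15 and 0.10. Ahrr and Cyp1b1 were called at every dose. Cyp1a1 was called at D2 and D3, at log2 fold changes of 2.96 and 3.61, with a log2 ratio of 0.43 to 4.01 among the D1 mice against 0.66 to 0.99 in D0. Nqo1, a quinone reductase gene shared by the AHR and NRF2 lists, was called at D3 at 0.59 (limma adjusted p = 0.0162), a value close to the 1.5-fold limit. That call was lost in 5 of 14 alternatives and in 4 of the 18 fits that left out a mouse: it was 0.47 without mouse 1 and 0.57 without mouse 5 (both D0), and 0.54 without mouse 31 and 0.56 without mouse 32 (both D3). Xdh (xanthine dehydrogenase) was called at D1 alone, at 0.60 (limma adjusted p = 0.0294), and the D1 count was 2, without Xdh, both under median centring and with slide as a block. Other described targets did not pass, including Ugt1a6a (0.03 at D3), Scin (-0.01), Gsta2 (0.13), Aldh3a1 (-0.44 and -0.46) and Areg (-0.71). Cyp1a2, Il22, Ido1, Ereg and Serpinb2 were not bright enough to be tested.

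The chaperone complex that holds AHR in the cytoplasm had 0 of 12 probes called at any dose. Its kinase Src met the adjusted p alone at D3, at -0.34 (limma adjusted p = 0.00759), or -0.76 with the processed signals, where it was called. Ptges3 (p23) read -0.23 at D3. Coactivators and corepressors of AHR had 0 of 24 probes called. At D3 the adjusted p alone was met by 2 probes that were higher and 3 that were lower. Among the lower ones were Crebbp at -0.40 and Med1 (a Mediator subunit) at -0.31, while Ncoa1 at -0.30 did not pass. The PARP family, to which Tiparp belongs, had 0 of 18 probes called, and Parp12 was the nearest at 0.39 (limma adjusted p = 0.0254). Parp8 (-0.09), Parp2 (0.21) and Parp4 (0.18) did not pass at D3.

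Other bHLH-PAS factors, the family of AHR and ARNT, had 10 tested probes, of which 1 was called, and lower, at D2 and at D3 (called lower among all probes, 0.464% at D1, 0.194% at D2, 1.23% at D3). This was Arntl, the core circadian clock gene also known as Bmal1, at log2 fold changes of -1.296 and -1.26, and its D1 value was -0.62. Its clock partner Clock read -0.39 at D3 (limma adjusted p = 0.056). Hif1a, which pairs with ARNT in the hypoxia response, was 0.41 higher at D3 (limma adjusted p = 0.00163), under 1.5-fold, and Epas1 read -0.52 (limma adjusted p = 0.0583). Among 20 probes of hypoxia genes bound by HIF and ARNT, 1 was called, at D2: Adm (adrenomedullin) fell by 0.77. Ndrg1, a gene raised by hypoxia, was 0.45 to 0.49 higher in the 3 comparisons, past the limma adjusted p (0.0172 to 0.0281) and under 1.5-fold. At D3, Ldha fell by 0.39 and Car9 by 0.34, also past the adjusted p alone.

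NRF2 targets had 28 tested probes of 20 genes, and 2 (D1), 2 (D2) and 3 (D3) were called, all higher (called higher among all probes, 0.593%, 0.435% and 1.2%). The list medians were 0.0034, 0.04 and 0.04 in that order. Both probes of Ephx1, microsomal epoxide hydrolase, which acts in the activation of these hydrocarbons as well as in the antioxidant battery, were called at every dose and reached 1.40 and 1.39 at D3. Srxn1 (sulfiredoxin) was 0.42 higher at D3 (limma adjusted p = 0.0033), under 1.5-fold. Hmox1 (heme oxygenase), a classical NRF2 target, was lower at D3, at -0.24 (limma adjusted p = 0.0432) by 1 probe and -0.32 (limma adjusted p = 0.0978) by the other. Gclm (0.32), Gclc (-0.15) and Txnrd1 (0.06), of glutathione synthesis and thioredoxin recycling, did not pass. Among 22 probes of genes that control or resemble NRF2, 1 was called at D3 (called higher among all probes, 1.2%), Nfe2, at 0.71 (limma adjusted p = 0.00476). Mafg, a small MAF partner, was -0.33 (limma adjusted p = 0.0107), Gsk3b was 0.37 (limma adjusted p = 0.0166) and Btrc read 0.26 (limma adjusted p = 0.108). Where arrays were centred on their median in place of loess, the calls of Arntl, of Adm, of Nfe2, of Nqo1, of Cyp1a1 at D2 and of Ephx1 at D1 and D2 were lost, each with its direction kept.

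**Figure D5:**
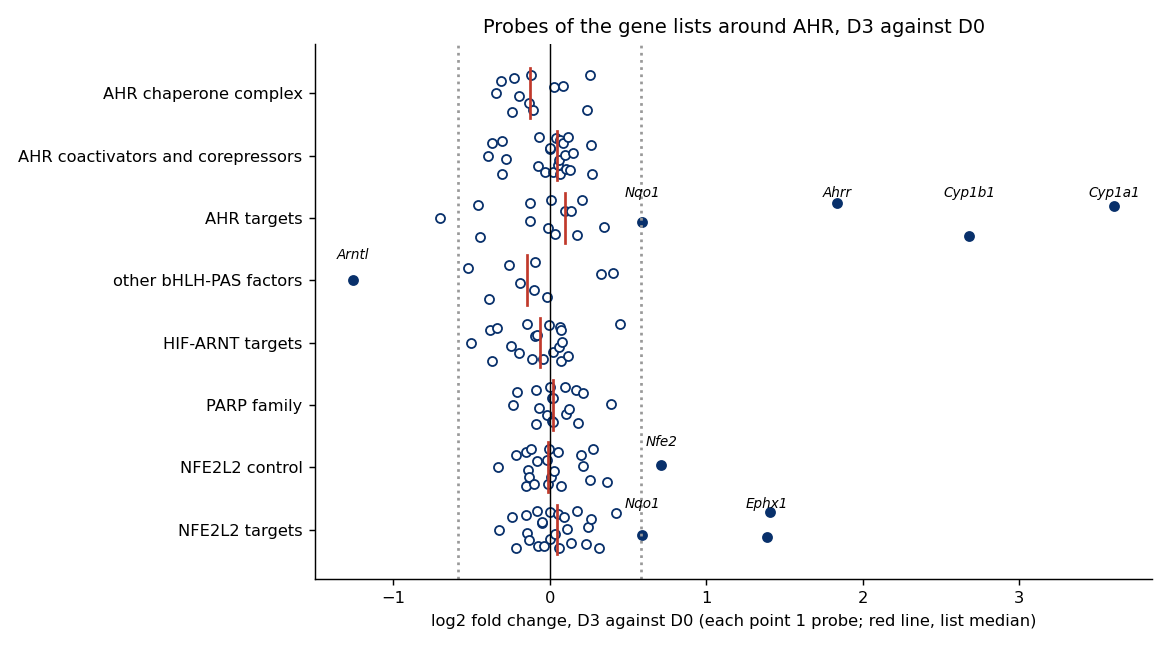
Log2 fold change of D3 against D0 (horizontal axis) for every tested probe of 8 gene lists, 1 row per list. Each point is 1 probe, filled and named by gene where called, red lines are list medians and dotted lines mark 1.5-fold; Cyp1a1 lies farthest out at 3.61, and 4 lists had no called probe.

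The tissue and its cell makeup were read from marker lists. All 10 lung epithelium genes were well above background in 18 of 18 mice, with log2 ratios of 3.14 to 8.72, and 0 of their 14 probes were called at any dose. The median log2 fold change of these probes was -0.34 (D1), -0.09 (D2) and -0.32 (D3). At D3, 1 of them, of Sftpb, met the adjusted p alone, at -0.36 (limma adjusted p = 0.0461). Neutrophil markers did not all move one way. At D3, 4 of 5 probes were called higher (S100a8, S100a9, Retnlg and Cxcr2), while the remaining one, Csf3r (the G-CSF receptor gene), was lower at -0.46 (limma adjusted p = 0.00641), under 1.5-fold. At D1 Csf3r was likewise lower, at -0.37 (limma adjusted p = 0.0428), and 0 of 5 probes were called at D1 and at D2. Shares over all probes were 0.593%, 0.435% and 1.2% called higher, and 0.464%, 0.194% and 1.23% called lower, for D1, D2 and D3. The mean log2 ratio of the 5 neutrophil probes was 2.04 to 2.75 in D0, 2.66 to 2.86 in D1, 2.41 to 3.16 in D2 and 2.82 to 4.13 in D3. Of 7 NK cell probes, 1 was called lower at D1, 1 at D2 and 2 at D3. The adjusted p alone was met by 2, 3 and 4 of them, all lower. Among all probes it was met by 4.78%, 2.07% and 12.4%, either way. The NK list medians were -0.32, -0.34 and -0.55. The mean log2 ratio of the 7 NK cell probes was 1.24 to 2.04 in D0, 0.81 to 1.36 in D1, 0.71 to 1.21 in D2 and 0.63 to 1.01 in D3. Of 7 alveolar macrophage probes 1 was called lower at D2. That list's medians were -0.19 (D1), -0.40 (D2) and -0.48 (D3), while Marco read 0.71, 0.37 and 0.94, not called. At D3, 1 of 7 endothelium probes was called higher and 1 of 6 fibroblast probes was called lower, and 1 endothelium probe was called higher at D1. T cell, B cell, smooth, cardiac and skeletal muscle and liver markers had 0 calls against D0. In such bulk tissue, fewer cells of a type and less RNA per cell cannot be told apart. Nfe2 is a gene of blood cells, and it was called higher at D3, as were those 4 neutrophil probes. The part of these markers in any change above was not tested.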

How the data were processed

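Lung RNA of 18 mice was measured on 19 2-colour Agilent arrays on 3 slides. Spot intensity values were taken from the deposited scanner output, made per the file headers with Feature Extraction 11.0.1.1 (the study's methods name an older release and scanner). A deposited table holds log2 ratios normalized by the authors, and was used as an alternative. Median signals without background subtraction were normalized by loess (span 0.3) in limma 3.58.1 (R 4.3.3). Control spots (3671 of 62976) and outlier spots (171 to 323 per array) were left out before averaging by probe. The arrays of D3 mouse 35, on 2 slides, were averaged. A probe was tested where red was well above background in 4 or more mice of 1 group. Red was well above background for 54.5% to 64.7% of spots and the number of mice limits the precision. Identifiers (21465 of 22765) were matched to RefSeq symbols.

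One limma model over 4 groups gave each contrast, with Benjamini-Hochberg adjustment over 31005 probes. No dyes were swapped, and dose groups kept to fixed array columns, so the effects of column and dose cannot be told apart. The members and gene lists were chosen with earlier results of these data known. Named from each list were the probes with the smallest adjusted p for the mean of the 3 doses, besides genes needed to describe a role, and, for likeness, the highest Pearson r. Some genes of the lists are counted but not reported here by name. Permutations numbered 100000. Scripts were tested on simulated data.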

Additional observations from a re-analysis of the deposited data

Results flagged for a closer look

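Within the 32 groups of mice formed by the 8 tested probes and 4 doses, 3 held a mouse far from the others, judged by its gap to the nearest mouse as a share of the range of the group. Chance alone marks about 1 in 20 groups. For Tiparp in D1, mouse 21 lay at -0.89 with the next at -0.67, a gap of 0.944 of the range. For Tiparp in D2, mouse 28 lay at -0.80 with the next at -0.64, a gap of 0.863 of the range. Both are the low end of their groups and both fall inside the range of the D0 mice. For the second Ahr probe in D2, the mouse labelled 23 lay at 0.07 with the next at 0.33, a gap of 0.76 of the range, at signals near background. Neither probe was called with or without these mice.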

How the results depend on the processing

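Ahrr was called against D0 at every dose in all alternatives that kept its probe, and with any 1 mouse left out. Requiring red well above background in all 18 mice drops the probe because of the control mice, so the count of member probes called was 0 at D1, D2 and D3, for the mean of the 3 doses and for the trend. Leaving out any 1 mouse gave 1 to 1 call in these comparisons, and 0 to 0 for D2 against D1 and D3 against D2. The log2 fold change of Ahrr at D3 was 1.79 to 1.90 over the leave-outs and 1.70 to 3.76 over the others, the highest with processed signals. Without mouse 23 it was 1.90 at D2. Median centring in place of loess shifted the median of all probes by 0.169 at D1, 0.121 at D2 and 0.0602 at D3 and left 12, 18 and 98 calls of 328, 195 and 753. Under it the trend of Ahrr was not called (0 member probes), and the counts were 0 for bHLH-PAS factors at D2 and D3, for HIF-ARNT targets at D2, for NFE2L2 control at D3 and for NFE2L2 targets at D1 and D2. The cause was not tested. Ahr was then 0.27 at D1, 0.13 at D2 and -0.04 at D3. The share of calls that were higher became 100% (D1), 88.9% (D2) and 82.7% (D3), in place of 56.1%, 69.2% and 49.4%. Uncalled values changed sign in 76 refits, over 41 results. Groups share no mouse numbers, so animals could not be paired, but each slide held all groups, and with slide as a block every call of a member probe was kept while those of Nqo1 at D3 (0.57) and Xdh at D1 were lost. Probes near background (the second Ahr and Ahrr probes, Arnt2 and Ahrr in D0) limit what could be measured.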
